A study of Mus musculus with 8 samples.

Results

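The Slc25 genes encode the mitochondrial carriers, a family of related membrane proteins. In the deposited table of coding transcripts, mapped to mouse gene symbols, every gene whose symbol is Slc25a followed by a number was taken, and the transcript row of highest total count stood for the gene. This gave 44 members of 15359 genes, called the family here. Relatives under other symbols, such as Ucp2, Ucp3, Mtch1 and Mtch2, are not among them. Of the 47 coding Slc25a genes in the RefSeq gene table, 3 had no row and were not analysed here: Slc25a2, Slc25a31 and Slc25a54. Messenger RNA was sequenced from mouse ventral midbrain, the region that contains the dopaminergic neurons of the substantia nigra, in 4 Ercc1 delta/+ samples and 4 wild type samples. Ercc1 delta/+ mice carry 1 delta allele of Ercc1, a nucleotide excision repair gene, beside 1 wild type allele. Both groups had the mixed FVB:C57BL/6J background, and the labels used here give neither age nor sex. The tissue is a mixture of cell types, and no label ties a sample to its own animal, so p-values here speak only of the spread among the samples, which may be technical.

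Mitochondrial carriers sit mostly in the inner mitochondrial membrane, which is closed to charged metabolites, and move nucleotides, phosphate, amino acids, carboxylates, cofactors and iron across it. The ADP/ATP carriers export newly made ATP in exchange for ADP, and the phosphate carrier brings in the phosphate used to make it. In brain, the aspartate/glutamate carrier and the oxoglutarate/malate carrier belong to the malate-aspartate shuttle, together with its enzymes. The shuttle passes reducing equivalents from the cytosol to the respiratory chain.

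The 2 ADP/ATP carriers in the table are close relatives and both abundant, and a stretch of their coding sequences is shown to make visible what tells their reads apart. Both coding sequences are 894 bases long, and 692 of these bases, or 77.4%, were identical. The longest identical stretch was 20 bases. Bases 286 to 375 of the coding sequence, from GENCODE M21 transcripts of the GRCm38 build, are printed 5′ to 3′ on the coding strand, with capitals at the 19 bases that differ.
Slc25a4: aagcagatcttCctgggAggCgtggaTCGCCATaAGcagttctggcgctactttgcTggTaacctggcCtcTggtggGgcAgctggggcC
Slc25a5: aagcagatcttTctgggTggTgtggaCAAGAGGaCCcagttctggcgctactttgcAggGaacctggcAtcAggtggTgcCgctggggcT
A read longer than 20 bases from the coding sequence therefore carries at least 1 base that differs between these genes. Slc25a5 also shared an identical stretch of at least 50 bases with transcripts of 9 other genes, 8 of them annotated as pseudogenes, the longest 145 bases. Slc25a3, Slc25a36 and Slc25a40 each shared such a stretch with 1 pseudogene, of 110, 330 and 297 bases. In all, 18 of the 44 members shared a stretch of this length with some other gene's transcript. Slc25a42 did so with 627 genes, Slc25a12 with 529 and Slc25a51 with 431, in stretches of at most 80, 163 and 125 bases. The sources used here do not state how reads that fit several places were counted, and the levels of these members are uncertain to that extent.

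With 1 row per gene, the Ercc1 delta/+ libraries held 18303913 to 27197581 counts and the wild type libraries held 20558308 to 31261889 counts, so that 3 counts correspond to 0.0960 to 0.164 CPM, the count scaled to library size; this limit covers counting error only. Ercc1 itself had 10.2, 12.9, 11.1 and 11.9 CPM in Ercc1 delta/+ libraries, against 14.0, 15.3, 14.9 and 13.8 CPM in wild type libraries, with no overlap. Its log2 fold change was -0.34 (SE 0.10, edgeR adjusted p = 0.113). All 5 dopaminergic markers (Th, Slc6a3, Slc18a2, Ddc and Pitx3) were detected in every library, with a summed level of 140 to 273 CPM in Ercc1 delta/+ libraries and 203 to 343 CPM in wild type libraries. All 5 had negative estimates (median log2 fold change -0.12), and 0 reached an unadjusted p under 0.05. Of 5 general neuronal markers, 4 had positive estimates and 2 reached an unadjusted p under 0.05. These were Stmn2 (log2 fold change -0.19, no overlap) and Rbfox3 (log2 fold change 0.30, with overlap). Some markers of other tissues and cell types had different mean levels in the 2 genotypes, although 0 of them were called. The summed level of 5 choroid plexus markers was 67.2 to 1111 CPM in Ercc1 delta/+ libraries and 52.7 to 144 CPM in wild type libraries. That of 5 markers of cortex, hippocampus and thalamus was 280 to 782 CPM in Ercc1 delta/+ libraries and 140 to 507 CPM in wild type libraries. Both sums overlapped between genotypes, and 0 of the 5 markers of cortex, hippocampus and thalamus reached an unadjusted p under 0.05. All 5 choroid plexus markers had higher estimates in Ercc1 delta/+, 4 of them at an unadjusted p under 0.05, with a median log2 fold change of 1.85. Of 5 endothelial markers, 2 reached an unadjusted p under 0.05, both higher, and Flt1 did not overlap (log2 fold change 0.43, edgeR adjusted p = 0.0661). The hemoglobin gene Hba-a1 had a log2 fold change of -0.45 (edgeR adjusted p = 0.136). The part of these differences in the results below was not tested.

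The carriers of oxidative phosphorylation were the most abundant members. Levels are given as CPM per kilobase of transcript (RPKM), which allows members of different length to be compared. Over all 8 libraries the 44 members ran from 0.119 RPKM (Slc25a48) to 291 RPKM (Slc25a4). Their median was 11.03 RPKM, beside 8.42 RPKM for all genes with a known length. There were 24 members above 10 RPKM, 15 from 1 to 10 RPKM and 5 below 1 RPKM. Slc25a4 and Slc25a3 together held 36.1% of the summed RPKM of the family, the top 3 with Slc25a5 held 47.9%, and the top 5 with Slc25a23 and Slc25a22 held 61.8%. The ranges of Slc25a4, Slc25a3, Slc25a5 and Slc25a23, in falling order, did not overlap within either genotype.

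**Figure D1:**
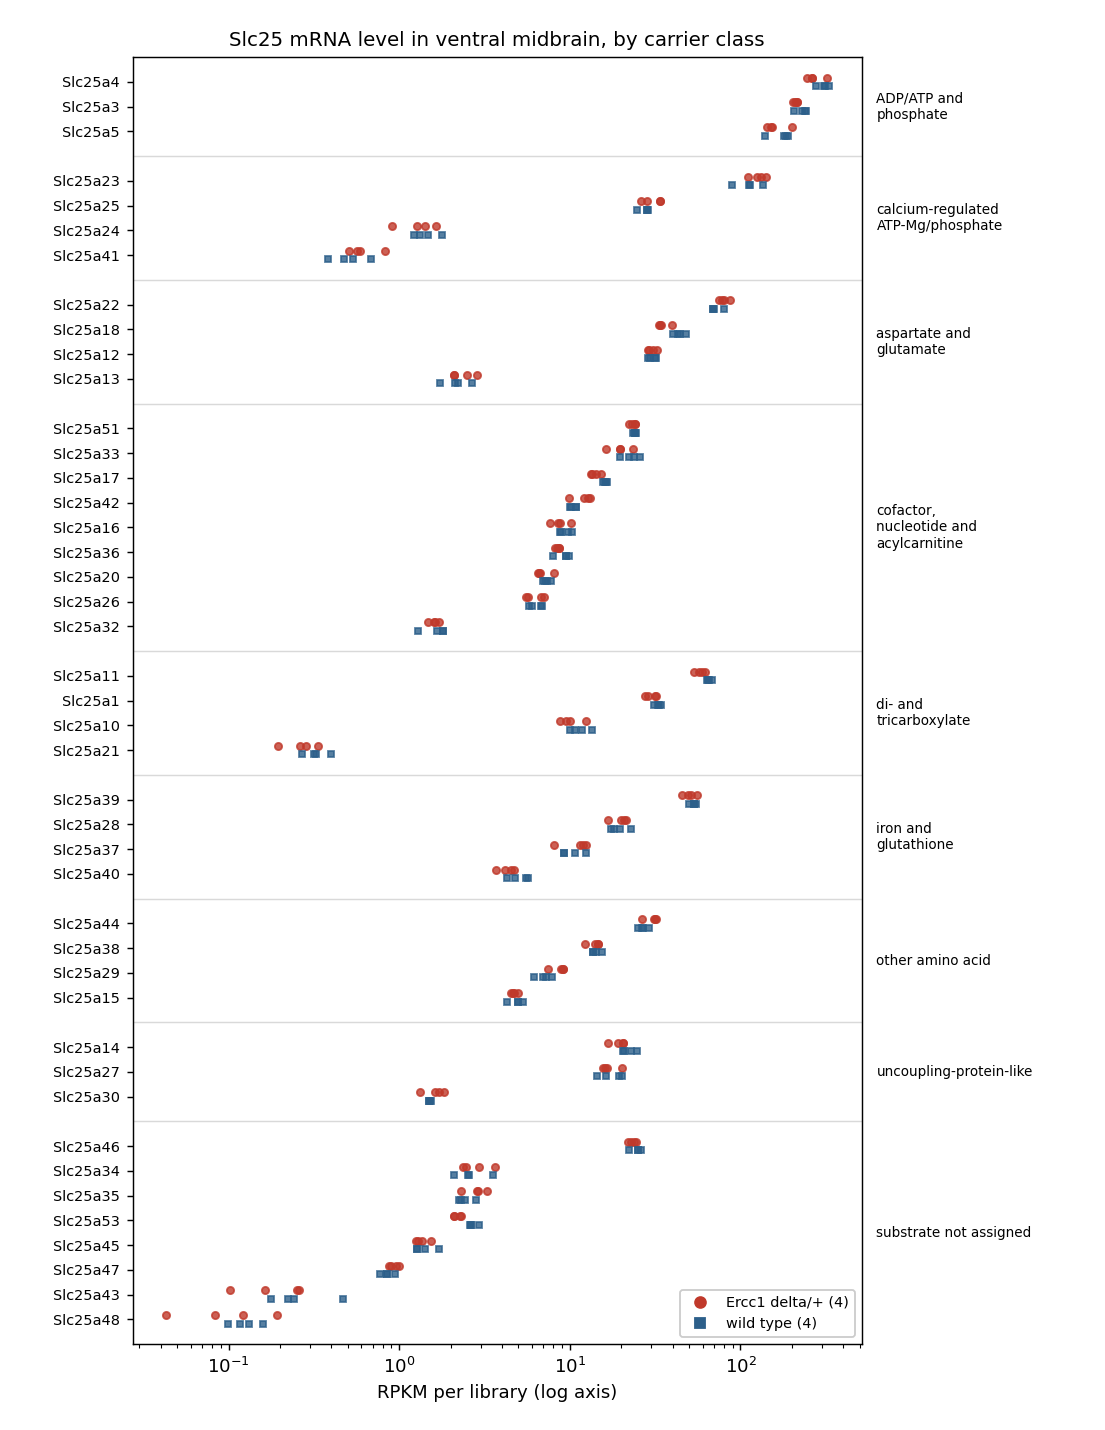
Level of 43 Slc25 members in RPKM on a log axis, grouped by carrier class; each circle is an Ercc1 delta/+ library and each square a wild type library (4 each). Levels spread from 0.119 RPKM to 291 RPKM between members, while the 2 genotypes lie close together for each member.

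No Slc25 member passed the test for a genotype difference. Of the 44 members, 42 passed the filter on low counts and 0 had an adjusted p under 0.05 in edgeR's quasi-likelihood test. Across all 15074 genes tested that test called 7, or 0.0464%, of which 2 (0.0133%) were higher and 5 (0.0332%) lower in Ercc1 delta/+. An unadjusted p under 0.05 was reached by 6 members (14.3%), against 18.7% of all genes tested. Of these, 5 had lower and 1 had higher values in Ercc1 delta/+, where 9.65% and 9.08% of all genes tested did. The libraries of the genotypes did not overlap for 5 members (11.9%), against 12.1% of all genes tested. The 6 members with an unadjusted p under 0.05 were Slc25a18 on chromosome 6, Slc25a53 and Slc25a14 on chromosome X, Slc25a17 on chromosome 15, Slc25a11 on chromosome 11 and Slc25a29 on chromosome 12. The 5 members without overlap had lower values in Ercc1 delta/+, and 0 had higher ones, where 6.88% and 5.17% of all genes tested did. Taking both directions, these shares were at or below those of the whole table. DESeq2 and edgeR's exact test each called 1 member, Slc25a18. DESeq2 called 7.54% of the 13866 genes to which it gave an adjusted p. The exact test called 3.64% of 15074 genes. With limma-voom 0 members were called, in a test that called 0.345% of 15074 genes.

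The fitted differences were small. The 42 estimates ran from a log2 fold change of -0.31 (Slc25a18, a fold of 0.804) to 0.29 (Slc25a29). The 95% interval lay within 1.5-fold for 40 members. The other 2 were the rarely counted Slc25a21 (-0.80 to 0.29) and Slc25a41 (-0.33 to 0.88). The estimate was negative for 27 members (64.3%) and positive for 15, against 50.5% negative among all genes tested. The median was -0.05 for members and -0.003 for all genes tested. In the authors' deposited table, 0 of the 53 transcript rows of these members had an adjusted p under 0.05, against 1.86% of all rows, and the lowest was 0.170 (Slc25a18).

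**Figure D2:**
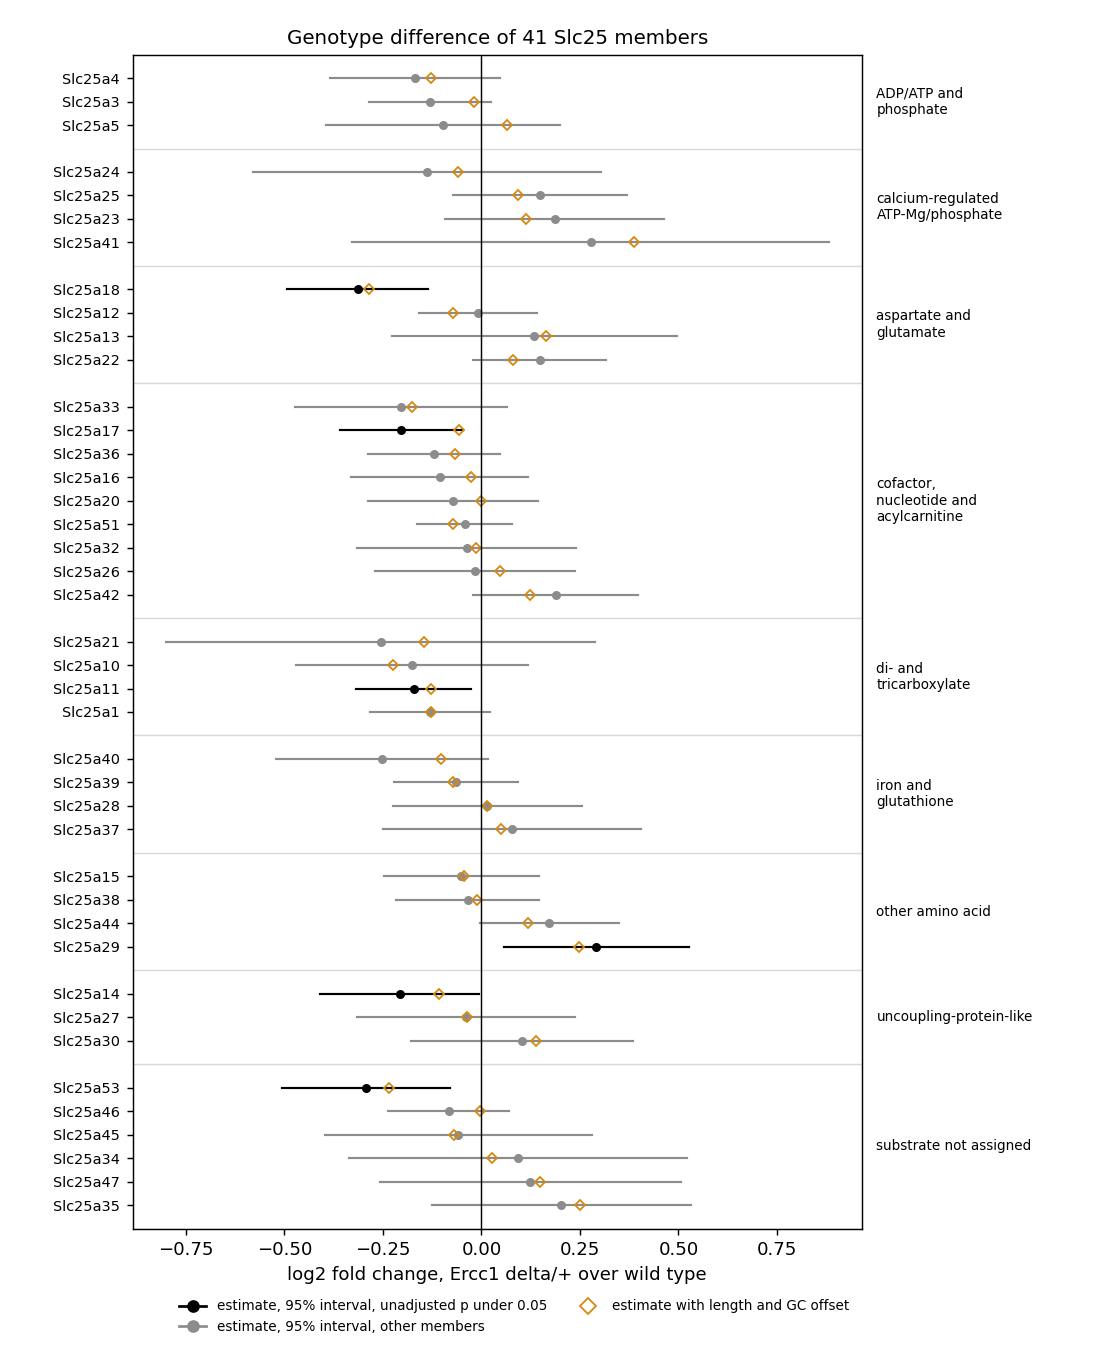
Log2 fold change of Ercc1 delta/+ over wild type for 41 members tested, by carrier class, with 95% intervals; black marks an unadjusted p under 0.05 and open diamonds give the estimate once length and GC content are offset. Estimates run from -0.31 to 0.29, and 6 intervals leave out 0, of which 5 are on the negative side.

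The ADP/ATP and phosphate carriers held the largest share of the family. The class made up 46.7 ± 1.97% of summed Slc25 RPKM in Ercc1 delta/+ libraries and 49.0 ± 1.43% in wild type libraries (SD, n = 4 each), and these ranges overlapped. Slc25a4, the ADP/ATP carrier of heart, muscle and brain (Ant1), had 245, 323, 263 and 264 RPKM in Ercc1 delta/+ libraries, against 308, 315, 329 and 278 RPKM in wild type libraries. Ercc1 delta/+ replicate 2 lay among the wild type values and the other 3 lay below all of them (log2 fold change -0.17, SE 0.10, edgeR adjusted p = 0.374). Slc25a3, the phosphate carrier, had 208, 215, 202 and 213 RPKM in Ercc1 delta/+ libraries, against 240, 229, 243 and 205 RPKM in wild type libraries. Wild type replicate 4 lay inside the Ercc1 delta/+ range (log2 fold change -0.13, SE 0.07, edgeR adjusted p = 0.339), and the estimate was -0.02 once length and GC content were offset. Slc25a5, the ADP/ATP carrier found in most tissues (Ant2), averaged 162 ± 26.0 RPKM in Ercc1 delta/+ libraries and 173 ± 23.8 RPKM in wild type libraries (SD, n = 4 each), and its estimate of -0.10 turned to 0.06 once length and GC content were offset. Without that offset, all 3 estimates of the class were negative.

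**Figure D3:**
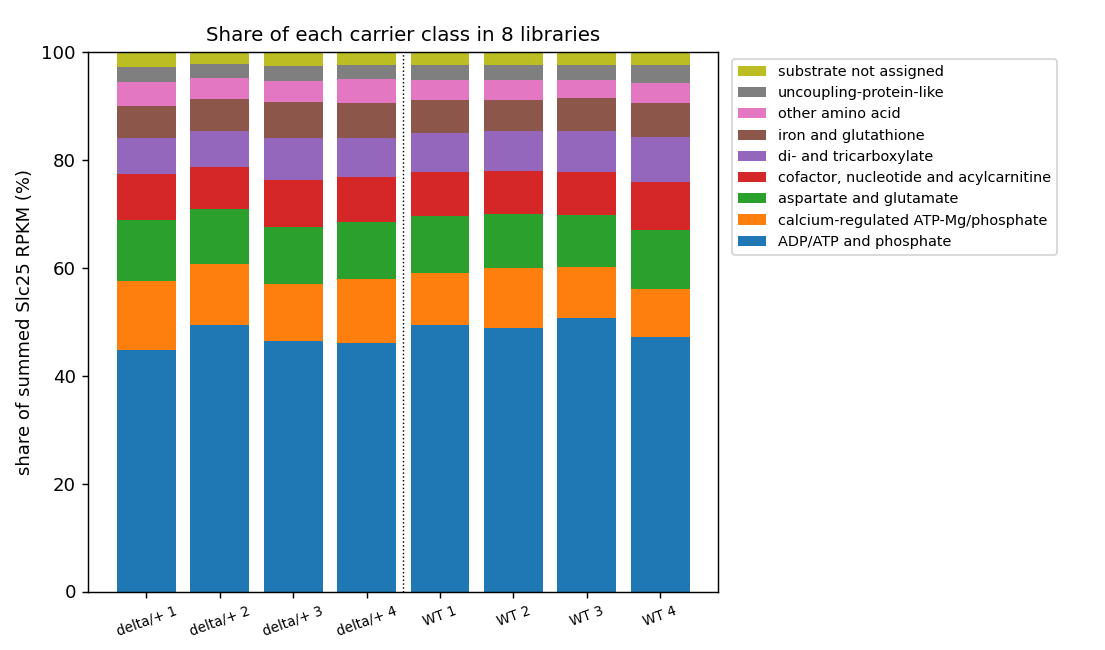
Share of each carrier class in the summed Slc25 RPKM of each library, in percent; the 4 Ercc1 delta/+ libraries stand left of the dotted line and the 4 wild type libraries right of it. The ADP/ATP and phosphate carriers averaged 46.7% in Ercc1 delta/+ libraries and 49.0% in wild type libraries.

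The calcium-regulated ATP-Mg/phosphate carriers, which adjust the adenine nucleotide content of the matrix, came next together with the aspartate and glutamate carriers. The ATP-Mg/phosphate carriers held 11.6 ± 0.978% of the family in Ercc1 delta/+ libraries and 9.76 ± 0.929% in wild type libraries (SD, n = 4 each), with overlap. Most of this was Slc25a23, with 141, 133, 111 and 126 RPKM in Ercc1 delta/+ libraries, against 112, 135, 113 and 89.4 RPKM in wild type libraries (log2 fold change 0.19, SE 0.12, edgeR adjusted p = 0.450). The highest wild type value lay inside the Ercc1 delta/+ range, and the estimate was 0.04 with a covariate marking the 4 smallest libraries (the depth term) and 0.09 without wild type replicate 4. Slc25a25 had 28.4, 34.0, 26.0 and 33.7 RPKM in Ercc1 delta/+ libraries, against 28.5, 28.3, 28.7 and 24.7 RPKM in wild type libraries, with overlap (log2 fold change 0.15, edgeR adjusted p = 0.448), and its estimate was 0.06 with the depth term. Exons of Slc25a25 overlapped those of Naif1 on the opposite strand by 379 bases, and Naif1 had a log2 fold change of 0.38 (SE 0.17, edgeR adjusted p = 0.282). Slc25a24 and Slc25a41 were rare. Slc25a24 averaged 1.31 RPKM in Ercc1 delta/+ libraries and 1.45 RPKM in wild type libraries. Slc25a41, which lacks the calcium-binding domain, averaged 0.622 RPKM in Ercc1 delta/+ libraries and 0.519 RPKM in wild type libraries.

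Among the aspartate and glutamate carriers, the 2 glutamate carriers had estimates of opposite sign. The class held 10.7 ± 0.474% of the family in Ercc1 delta/+ libraries and 10.3 ± 0.631% in wild type libraries (SD, n = 4 each), with overlap. Slc25a18, a glutamate carrier known in brain mainly from astrocytes, had 65.3, 76.1, 63.3 and 64.9 CPM in Ercc1 delta/+ libraries, against 84.4, 91.6, 77.2 and 82.0 CPM in wild type libraries. Every Ercc1 delta/+ value lay below every wild type value, although the highest, in replicate 2, stood just under the lowest wild type value. The log2 fold change was -0.31 (SE 0.08, 95% interval -0.49 to -0.13), the lowest among the members, with an edgeR adjusted p of 0.0930. Over the alternative settings its adjusted p ran from 0.0158 with DESeq2 to 0.250 with the length and GC offset, and it was 0.0470 without Ercc1 delta/+ replicate 2, when 310 of the 15164 genes tested passed. The 5 astrocyte markers (Aqp4, Gja1, Slc1a2, Aldh1l1 and Gfap) summed to 2076 to 3634 CPM in Ercc1 delta/+ libraries and 1821 to 3342 CPM in wild type libraries. Slc1a2 made up most of that sum. None of these 5 reached an unadjusted p under 0.05, and their log2 fold changes were -0.03 for Aqp4, -0.07 for Gja1, 0.35 for Slc1a2, -0.02 for Aldh1l1 and 0.16 for Gfap. In bulk tissue, fewer cells of a type and less RNA per cell cannot be told apart. Exons of Slc25a18 overlapped those of Atp6v1e1 on the opposite strand by 32 bases in GENCODE M21, and Atp6v1e1 had a log2 fold change of -0.14 (SE 0.07, edgeR adjusted p = 0.329).

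Slc25a22, the other glutamate carrier, had 86.4, 78.1, 75.1 and 79.7 RPKM in Ercc1 delta/+ libraries, against 80.5, 69.8, 69.2 and 68.7 RPKM in wild type libraries. All 4 Ercc1 delta/+ values lay above 3 of the wild type values, with wild type replicate 1 among them (log2 fold change 0.15, SE 0.07, edgeR adjusted p = 0.323), and the estimate was 0.08 with the length and GC offset. The aspartate/glutamate carrier Slc25a12 (aralar), the form that serves neurons, averaged 30.2 ± 1.58 RPKM in Ercc1 delta/+ libraries and 30.4 ± 1.72 RPKM in wild type libraries (SD, n = 4 each). Its log2 fold change was -0.01, and the 95% interval of -0.16 to 0.14 bounds the difference. Slc25a13 (citrin), the liver form, averaged 2.38 ± 0.367 RPKM in Ercc1 delta/+ libraries and 2.18 ± 0.382 RPKM in wild type libraries (SD, n = 4 each).

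**Figure D4:**
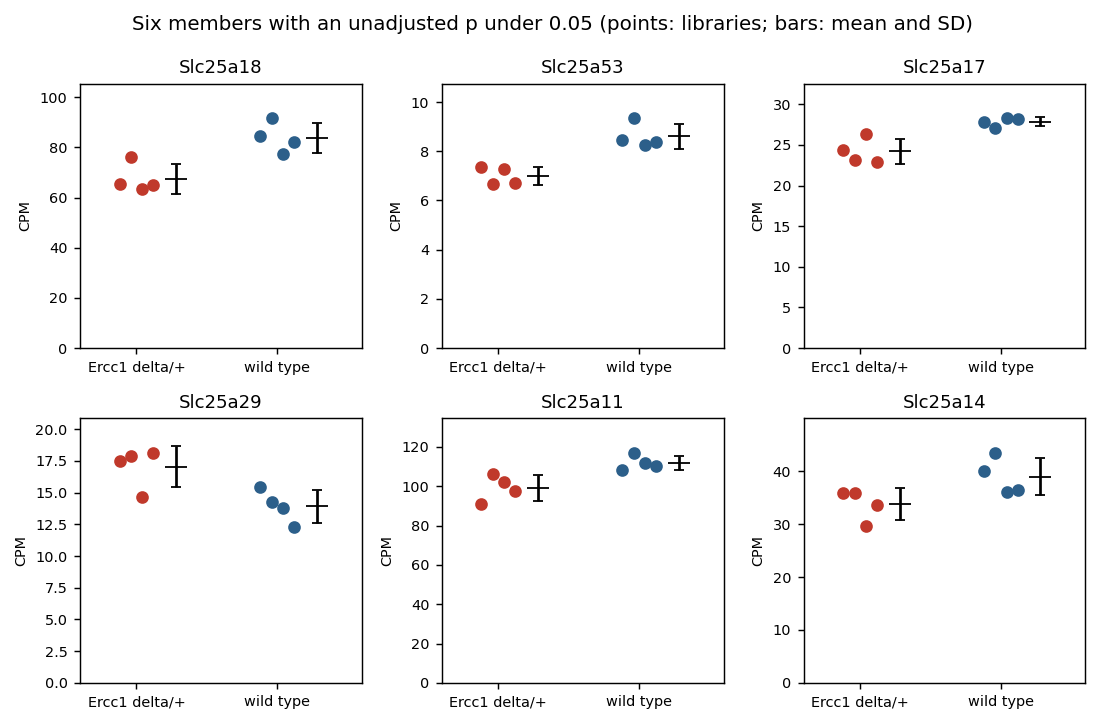
CPM of the 6 members with an unadjusted p under 0.05, one panel each, with each point a library and the bars the mean and SD (n = 4 each); Ercc1 delta/+ stands left of wild type and the axes start at 0. The groups do not overlap for Slc25a18, Slc25a53, Slc25a17, Slc25a11 and Slc25a14 and overlap for Slc25a29.

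The di- and tricarboxylate carriers, which move malate, oxoglutarate, succinate and citrate, all had negative estimates. Their summed level was 98.4 ± 6.07 RPKM in Ercc1 delta/+ libraries and 110 ± 3.87 RPKM in wild type libraries (SD, n = 4 each), without overlap. Slc25a11, the oxoglutarate/malate carrier of the malate-aspartate shuttle, had 90.9, 106, 102 and 97.8 CPM in Ercc1 delta/+ libraries, against 108, 117, 112 and 110 CPM in wild type libraries. The groups did not overlap (log2 fold change -0.17, SE 0.06, edgeR adjusted p = 0.204). Exons of Slc25a11 overlapped those of Rnf167 on the opposite strand by 189 bases, and Rnf167 had a log2 fold change of -0.03. Slc25a1, the citrate carrier, had 46.0, 47.7, 52.5 and 53.5 CPM in Ercc1 delta/+ libraries, against 51.7, 55.1, 56.7 and 55.1 CPM in wild type libraries, with an overlap (log2 fold change -0.13). Slc25a10, the dicarboxylate carrier, averaged 10.2 ± 1.59 RPKM in Ercc1 delta/+ libraries and 11.5 ± 1.53 RPKM in wild type libraries (SD, n = 4 each; log2 fold change -0.18). Slc25a21, the oxodicarboxylate carrier, averaged 0.269 RPKM in Ercc1 delta/+ libraries and 0.327 RPKM in wild type libraries.

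The uncoupling-protein-like carriers, relatives of the brown fat uncoupling protein that are found in brain, summed to 37.9 ± 0.509 RPKM in Ercc1 delta/+ libraries and 41.3 ± 0.847 RPKM in wild type libraries (SD, n = 4 each), without overlap. The largest difference of the class was that of Slc25a14 (Ucp5), with 36.0, 35.9, 29.6 and 33.7 CPM in Ercc1 delta/+ libraries, against 39.96, 43.5, 36.1 and 36.4 CPM in wild type libraries. The highest Ercc1 delta/+ value, 36.0, stood just under the lowest wild type value, 36.1 (log2 fold change -0.21, SE 0.09, edgeR adjusted p = 0.256). The estimate was -0.11 with the length and GC offset, where its unadjusted p was no longer under 0.05, and -0.32 with the depth term. Slc25a27 (Ucp4) had 16.1, 15.6, 20.3 and 16.4 RPKM in Ercc1 delta/+ libraries, against 16.3, 14.5, 19.4 and 20.1 RPKM in wild type libraries, and the groups overlapped (log2 fold change -0.04). Slc25a30 was the rarest of the class, with 1.63, 1.83, 1.32 and 1.71 RPKM in Ercc1 delta/+ libraries, against 1.49, 1.49, 1.51 and 1.53 RPKM in wild type libraries (log2 fold change 0.10).

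The carriers of cofactors, nucleotides and acylcarnitine formed the class with the most members, 10, of which 8 had negative and 2 positive estimates, and Slc25a26 among the 8 turned to 0.05 with the length and GC offset. Their sum was 114 ± 1.27 RPKM in Ercc1 delta/+ libraries and 120 ± 2.47 RPKM in wild type libraries (SD, n = 4 each), without overlap. Of the 9 classes, 3 had sums without overlap, all with lower values in Ercc1 delta/+. As shares of the family, these 3 classes overlapped between genotypes. Among single genes tested, 12.1% did not overlap and 6.88% did so with lower values. Sums of several genes can spread otherwise than single genes, so these shares are no matched background. Most of the di- and tricarboxylate sum was Slc25a11, with means of 58.0 RPKM in Ercc1 delta/+ and 65.4 RPKM in wild type libraries. That gene is itself among the members without overlap. The class sums were not tested or recomputed with the length and GC offset. Slc25a17, a carrier of the peroxisome, had 24.4, 23.2, 26.3 and 22.8 CPM in Ercc1 delta/+ libraries, against 27.9, 27.1, 28.3 and 28.2 CPM in wild type libraries. The groups did not overlap (log2 fold change -0.20, SE 0.07, edgeR adjusted p = 0.168), and the estimate was -0.06 with the length and GC offset. Slc25a51, the NAD carrier, had the highest level of the class, with 24.0, 22.2, 23.0 and 24.0 RPKM in Ercc1 delta/+ libraries, against 24.1, 23.6, 24.0 and 24.4 RPKM in wild type libraries (log2 fold change -0.04). Slc25a33, a pyrimidine nucleotide carrier, had 30.6, 44.3, 37.4 and 37.4 CPM in Ercc1 delta/+ libraries, against 48.5, 44.8, 41.8 and 37.2 CPM in wild type libraries (log2 fold change -0.20). Slc25a42, the coenzyme A carrier, had 41.1, 31.4, 38.6 and 41.7 CPM in Ercc1 delta/+ libraries, against 34.9, 32.4, 32.1 and 34.8 CPM in wild type libraries (log2 fold change 0.19, edgeR adjusted p = 0.314). Slc25a16, Slc25a20, Slc25a26, Slc25a32 and Slc25a36 had log2 fold changes of -0.12 (Slc25a36) to -0.02 (Slc25a26), and the genotypes overlapped for each.

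Iron and glutathione carriers overlapped between genotypes. Slc25a39, a glutathione carrier, had 45.7, 55.4, 49.5 and 51.6 RPKM in Ercc1 delta/+ libraries, against 54.7, 53.4, 53.1 and 50.2 RPKM in wild type libraries (log2 fold change -0.06). Its paralog Slc25a40 had 11.6, 10.2, 13.1 and 12.5 CPM in Ercc1 delta/+ libraries, against 13.4, 11.9, 15.3 and 15.9 CPM in wild type libraries (log2 fold change -0.25, edgeR adjusted p = 0.295), and its estimate was -0.10 with the length and GC offset. The mitoferrins import iron for heme and iron-sulfur clusters. Slc25a28 (mitoferrin 2) had 16.8, 21.3, 20.8 and 19.9 RPKM in Ercc1 delta/+ libraries, against 18.1, 17.4, 22.8 and 19.7 RPKM in wild type libraries (log2 fold change 0.01). Slc25a37 (mitoferrin 1), known for its role in red cell precursors, averaged 10.95 ± 1.96 RPKM in Ercc1 delta/+ libraries and 10.4 ± 1.51 RPKM in wild type libraries (SD, n = 4 each).

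Among the other amino acid carriers, Slc25a29, a carrier of basic amino acids, had the highest estimate of the family. It had 17.5, 17.9, 14.6 and 18.1 CPM in Ercc1 delta/+ libraries, against 15.5, 14.2, 13.8 and 12.3 CPM in wild type libraries. Ercc1 delta/+ replicate 3 lay inside the wild type range, and the other 3 lay above it (log2 fold change 0.29, SE 0.10, edgeR adjusted p = 0.187). With the depth term the estimate of Slc25a29 was 0.20, and its unadjusted p was no longer under 0.05. Slc25a44, a carrier of branched-chain amino acids, had 112, 113, 95.3 and 115 CPM in Ercc1 delta/+ libraries, against 96.4, 105, 95.2 and 89.8 CPM in wild type libraries, with the same replicate inside the wild type range (log2 fold change 0.17, edgeR adjusted p = 0.279). Its estimate was 0.07 with the depth term. Slc25a38, linked to glycine import for heme synthesis, had 14.0, 14.6, 12.3 and 14.7 RPKM in Ercc1 delta/+ libraries, against 15.4, 14.2, 13.6 and 13.6 RPKM in wild type libraries (log2 fold change -0.04). Slc25a15, the ornithine carrier of the urea cycle, averaged 4.71 RPKM in Ercc1 delta/+ libraries and 4.89 RPKM in wild type libraries. The class held 4.18 ± 0.301% of the family in Ercc1 delta/+ libraries and 3.67 ± 0.141% in wild type libraries (SD, n = 4 each), without overlap, the only one of the 9 class shares for which this was so. Its summed level did overlap, with 57.6 ± 4.41 RPKM in Ercc1 delta/+ libraries and 53.1 ± 3.06 RPKM in wild type libraries (SD, n = 4 each). A share also moves with the levels of the other classes.

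Of the 8 members given no substrate in the class list, Slc25a46, an outer membrane protein of mitochondrial fusion and fission, was the most abundant, with 24.4, 22.7, 23.8 and 22.0 RPKM in Ercc1 delta/+ libraries, against 26.1, 25.1, 25.1 and 22.2 RPKM in wild type libraries (log2 fold change -0.08). Slc25a53 had 7.38, 6.67, 7.26 and 6.71 CPM in Ercc1 delta/+ libraries, against 8.44, 9.35, 8.25 and 8.37 CPM in wild type libraries. The groups did not overlap (log2 fold change -0.29, SE 0.09, edgeR adjusted p = 0.151). With every transcript as its own row, the other row of Slc25a53 (1089 counts) had a log2 fold change of -0.23. That row did not reach an unadjusted p under 0.05. Slc25a34 had 3.65, 2.37, 2.46 and 2.93 RPKM in Ercc1 delta/+ libraries, against 2.11, 3.54, 2.53 and 2.56 RPKM in wild type libraries, with overlap (log2 fold change 0.09). Slc25a35 had 2.84, 3.28, 2.91 and 2.30 RPKM in Ercc1 delta/+ libraries, against 2.45, 2.25, 2.84 and 2.30 RPKM in wild type libraries, also with overlap (log2 fold change 0.20). The log2 fold change was -0.06 for Slc25a45 and 0.12 for Slc25a47. Exons of Slc25a35 overlapped those of Rangrf on the opposite strand by 1151 bases, and Rangrf had a log2 fold change of -0.15 (SE 0.12, edgeR adjusted p = 0.513). Slc25a43 and Slc25a48 did not pass the filter, with 54 and 76 counts over the 8 libraries, and were not tested.

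The carriers are imported by a dedicated route, through the receptor Tomm70 and the TOM pore, small TIM chaperones of the intermembrane space and the TIM22 complex of the inner membrane. Of 16 genes of this route, 0 were called, and 15 had negative estimates, against 50.5% of all genes tested. An unadjusted p under 0.05 was reached by 8, all 8 lower, against 9.65% lower among all genes tested. The median log2 fold change of the 16 genes was -0.22. Tomm20, a receptor of the outer membrane, had 77.7, 74.1, 75.6 and 78.1 CPM in Ercc1 delta/+ libraries, against 92.4, 97.5, 89.5 and 85.7 CPM in wild type libraries (log2 fold change -0.26, SE 0.06, edgeR adjusted p = 0.0828). Tomm5, a small subunit of the pore, had 12.3, 18.7, 16.8 and 14.4 CPM in Ercc1 delta/+ libraries, against 22.7, 22.0, 25.1 and 22.3 CPM in wild type libraries (log2 fold change -0.56, SE 0.13, edgeR adjusted p = 0.0780). Neither gene overlapped between genotypes. Timm10, a small TIM chaperone, had a log2 fold change of -0.46 (edgeR adjusted p = 0.0949). The summed level of the 16 genes was 709 to 743 CPM in Ercc1 delta/+ libraries and 747 to 876 CPM in wild type libraries. With the length and GC offset their median was -0.07 and 13 had negative estimates. With that offset 5 had an unadjusted p under 0.05, against 11.1% of all genes tested.

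Other mitochondrial transporters, whose symbols do not follow the Slc25a rule, had mostly negative estimates. Of 18 such genes in the table, 0 were called, 15 had negative estimates, against 50.5% of all genes tested. An unadjusted p under 0.05 was reached by 9, 8 of them lower, against 18.7% and 9.65% of all genes tested. Their median log2 fold change was -0.11. With the length and GC offset the median was -0.10 and 4 had an unadjusted p under 0.05, against 11.1% of all genes tested. Mpc1, a subunit of the pyruvate carrier, had 54.9, 65.5, 61.4 and 54.4 CPM in Ercc1 delta/+ libraries, against 81.0, 86.0, 86.8 and 58.8 CPM in wild type libraries (log2 fold change -0.40, edgeR adjusted p = 0.142). The porin Vdac3 had a log2 fold change of -0.22 (edgeR adjusted p = 0.113) and Mtch2, an outer membrane relative of the carriers, of -0.26 (edgeR adjusted p = 0.109). Ucp2, Ucp3 and Mtch1 on this list are relatives of the carriers too, so the shares of the family given above leave them out. Mtch1 averaged 229 RPKM over all libraries, between Slc25a3 and Slc25a4. Of the 4 enzymes of the malate-aspartate shuttle, Got1, Got2, Mdh1 and Mdh2, 0 were called. Mdh1 had the largest difference, with 584, 719, 626 and 655 CPM in Ercc1 delta/+ libraries, against 753, 758, 812 and 660 CPM in wild type libraries (log2 fold change -0.21, SE 0.09, edgeR adjusted p = 0.247). Got1 had a log2 fold change of 0.00.

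Transcript length went with the genotype difference across the whole table. Across all genes tested, Spearman's rho between length and log2 fold change was 0.395, and it was 0.0768 after length and GC content were offset in each library. The offset was fitted to length and GC content in these same counts, so a fall of rho was built in. These are descriptions across genes that share their libraries. Across the 42 members it was 0.167, and 0.0249 with the offset. The median length was 2544.5 bases for members and 3005 bases for all genes tested. Of the 21 members of 2480 bases or less, 15 had negative estimates, with a median of -0.07, and of the 21 members of 2609 bases or more, 12 did, with a median of -0.04. With the offset, 25 members had negative estimates, their median was -0.02, and 4 had an unadjusted p under 0.05, against 11.1% of all genes tested.

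**Figure D5:**
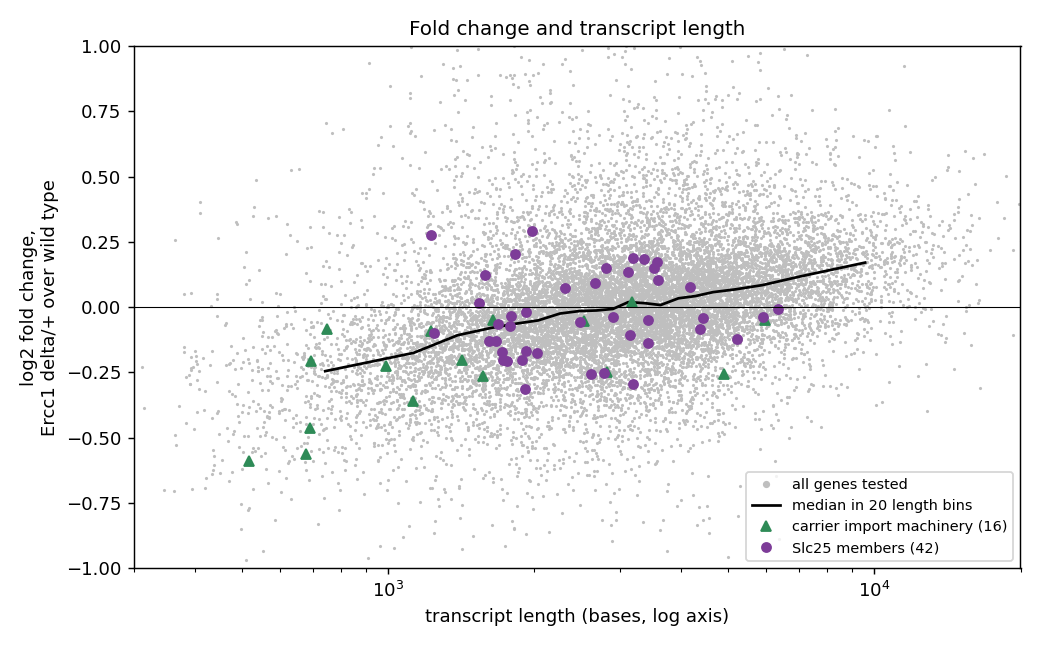
Log2 fold change of Ercc1 delta/+ over wild type against transcript length in bases (log axis) for all genes tested with a known length, with the 42 Slc25 members and the 16 genes of carrier import marked, and a line through the medians of 20 length bins; 130 genes lie outside the axes. The line climbs with length, and the shortest import genes lie at the lower left.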

How the data were processed

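Poly(A) RNA of 8 ventral midbrain samples was sequenced in 1 lane, per the labels' protocols. The authors deposited a table of 19931 coding RefSeq transcripts with raw read counts per library, and beside them their own log2 fold changes, p-values and adjusted p-values. TopHat 1.3.1, edgeR and the mm9 build are named in the submitters' processing notes. The sources used here do not state the counting tool or its use of strand. The lowest row total was 31 counts, so low rows had been left out.

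Rows were matched to symbols through RefSeq and GENCODE M21 tables (19456 matched, 475 kept by identifier). The row of highest total stood for each gene, and 152 genes were merged with another of identical counts, leaving 15359. Length and GC content came from the GENCODE M21 transcript and were found for 97.56% of genes and all 44 members. Since that build differs from mm9, no coordinates are given. Libraries of a group differed beyond sampling noise (lowest chi-square over degrees of freedom 11.9).

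The main test was edgeR 4.0.16's quasi-likelihood test in R 4.3.3, two-sided, with TMM, filterByExpr (15074 genes kept) and Benjamini-Hochberg adjustment over all genes tested, at a threshold of 0.05. CPM is TMM-normalised, and RPKM is this CPM per kilobase. The value of 3 counts covers counting error only. Class sums were not tested. Same-numbered libraries of the 2 genotypes correlated from -0.268 to 0.260, so numbers do not pair them. Alternatives were other scalings and filters, limma-voom (limma 3.58.1), DESeq2 1.42.0, edgeR's exact test, robust=TRUE, a replicate block, a length and GC offset (lowess, span 0.3), a term for the 4 smallest libraries, every transcript as its own row, and each library left out.

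Values per library are given for the 2 members of highest RPKM and the 2 of smallest p in each class and for those without overlap at an unadjusted p under 0.05, which makes 25 members. From each further list, up to 3 genes of smallest p and 2 of highest RPKM were eligible. Classes, members and lists were chosen with earlier results of these data known. The family counts, medians and class sums include 1 member whose own values are not reported here.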

Additional observations from a re-analysis of the deposited data

Results flagged for a closer look

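In 52 groups of 4 libraries, 2 for each named member and Ercc1, a library was looked for whose gap to its nearest neighbour took up more of the group's range than Dixon's 95% critical value allows. Chance flags about 1 in 20 groups, and 4 groups were found. Slc25a18 in Ercc1 delta/+ replicate 2 was far above the other 3, at 76.1 CPM, and Slc25a44 in Ercc1 delta/+ replicate 3 was far below the other 3, at 95.3 CPM. In the wild type group, Slc25a22 was far above in replicate 1, at 226 CPM, and Slc25a25 was far below in replicate 4, at 87.1 CPM. Without Ercc1 delta/+ replicate 2, Slc25a18 passed the threshold (edgeR adjusted p = 0.0470), as did 310 of the 15164 genes then tested, against 7 of 15074 with that library.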

How the results depend on the processing

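The number of genes called over the whole table, 7, depended on the setting. It was 33 with RLE scaling, 77 with upper-quartile scaling, 50 with the stricter filter, 548 with the edgeR exact test, 1046 with DESeq2, 52 with limma-voom, 1 with the length and GC offset, 1 with the depth term and 4 with every transcript as its own row, and leaving out 1 library gave 0 to 310. With the replicate number as a block it was 0. In deviations from the genotype means, 1 of 4 Ercc1 delta/+ libraries correlated best with the wild type library of its own number. This does not settle whether the numbers pair the samples. The number of Slc25 members called was 0 in edgeR's quasi-likelihood test, where 6 had an unadjusted p under 0.05, and 1 (Slc25a18) with the exact test and with DESeq2; leaving out 1 library gave 0 to 1, and the other settings gave 0. The median over members stayed negative in all settings run. The share of the ADP/ATP and phosphate carriers was 41.2% with the transcript rows of each gene summed, against 47.8%; rows of a gene share reads, so summing counts them more than once. Among the 42 members tested, the sign turned for 2 with the length and GC offset (Slc25a5, Slc25a26) and for 5 with the depth term (Slc25a12, Slc25a24, Slc25a26, Slc25a27, Slc25a34). With the same sign, 18 estimates came closer to 0 by over 1.5 times with the offset and 2 moved farther from it; with the depth term these were 10 and 9. Among the 25 named members, Slc25a28 was 0.01, and -0.00787 with upper-quartile scaling, and -0.0344 to 0.10 with 1 library left out. Slc25a27 was -0.04, and 0.14 with the depth term, and -0.13 to 0.0328 with 1 left out. Slc25a34 was 0.09, and -0.10 with the depth term, and -0.0485 to 0.25 with 1 left out. Slc25a38 was -0.04, and -0.0627 to 0.0178 with 1 left out. Of 500 combinations of a named member and a setting, 483 kept sign and side of the threshold, 14 turned sign and 3 passed the threshold. The cause was not tested.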

Other observations

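Ratios between related carriers within a library were compared for 10 pairs, chosen after the values were seen, so they are a description with no test. The ratio of the glutamate carriers Slc25a22 to Slc25a18, in RPKM, was 2.53, 1.96, 2.27 and 2.35 in Ercc1 delta/+ libraries, against 1.82, 1.46, 1.71 and 1.601 in wild type libraries. It was the only 1 of the 10 pairs without overlap between genotypes. The ratio of the ADP/ATP carriers Slc25a4 to Slc25a5 was 1.70 ± 0.0578 in Ercc1 delta/+ libraries and 1.79 ± 0.145 in wild type libraries (SD, n = 4 each). The ratio of the aspartate/glutamate carriers Slc25a12 to Slc25a13 was 12.9 ± 1.47 in Ercc1 delta/+ libraries and 14.3 ± 2.74 in wild type libraries (SD, n = 4 each). That of the mitoferrins Slc25a28 to Slc25a37 was 1.87 ± 0.532 in Ercc1 delta/+ libraries and 1.90 ± 0.312 in wild type libraries (SD, n = 4 each).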
